A study of Homo sapiens with 12 samples.

Results

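The IL-6 family is described here by 9 genes chosen by name, of 28901 named genes in the table. The 4 ligands were IL6, LIF, IL11 and CLCF1, and the 5 receptor subunits were IL6R, IL6ST, LIFR, OSMR and IL11RA. All 9 were among the 17173 genes whose counts added up to 10 or more in the 12 libraries, and all 9 were tested in every comparison. RNA-seq had been performed on polyA RNA from ASC52telo hTERT cells, a human adipose stromal line immortalized with telomerase, after differentiation to adipocytes until day 14. The cells carried scramble shRNA or shRNA against linc-ADAIN, a long intergenic noncoding RNA of human adipose tissue, delivered by lentivirus with the ZsGreen reporter, and ZsGreen-positive cells were sorted. In each background 3 libraries came from adipocytes without LPS and 3 from adipocytes after 4 h of LPS at 100 ng/mL, giving the groups scramble control, scramble control with LPS, linc-ADAIN KD and linc-ADAIN KD with LPS. All 4 groups had received insulin, dexamethasone, isobutylmethylxanthine, rosiglitazone, pantothenate and biotin for 7 days and then insulin, dexamethasone, pantothenate and biotin for 7 days. The study describes the RNA-seq as 1 experiment in triplicate with 1 hairpin against linc-ADAIN, so the spread between libraries is that of replicates within it, and an effect of the hairpin other than on linc-ADAIN cannot be told apart from the knockdown. The linc-ADAIN transcript was not analysed here.

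Cytokines of the IL-6 family signal through receptor complexes that share the subunit gp130, the product of IL6ST. IL-6 and IL-11 bind their own alpha subunits, IL6R and IL11RA, before recruiting gp130, whereas LIF signals through gp130 with LIFR, and the cytokine of CLCF1 acts through CNTFR, LIFR and gp130. OSMR, the oncostatin M receptor subunit, also pairs with gp130. The complexes activate JAK kinases and STAT3 above all, SOCS3 is the classical feedback inhibitor, and adipose tissue is known as a source of circulating IL-6. LPS, a bacterial cell wall component, induces IL6 through NF-κB in many cell types.

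Values per library are counts per 1e+06 counts (CPM) after TMM scaling over the 12 libraries. Depth, in units of 1e+06 counts (M), was 48.1 to 53.8 M per scramble control library, 31.5 to 44.5 M with LPS, 33.4 to 50.5 M in linc-ADAIN KD and 28.4 to 45.3 M in KD with LPS. The summed level of 10 adipocyte markers was 2979 to 4133 CPM in scramble control, 3525 to 4018 CPM with LPS, 592 to 1792 CPM in KD and 492 to 1156 CPM in KD with LPS. FABP4, PLIN1 and ADIPOQ were present in every library, but LEP did not exceed 0.49 CPM and LPL did not exceed 2.36 CPM in any, so these defining markers of adipocytes were near 0 in all groups. The 10 stromal and preadipocyte markers, with 1 of them (DLK1) at 0, summed to 6135 to 7021 CPM in scramble control and 6672 to 7430 CPM with LPS. In KD they summed to 6575 to 7548 CPM, and in KD with LPS to 7470 to 8287 CPM. The sums hide opposite moves. In KD without LPS 4 of 9 tested were higher, DPP4 the most (log2 fold change 2.07), and 3 lower, THY1 the most (-2.37). Over all genes tested there, 12.1% were higher and 15.1% lower. The 5 myofibroblast and smooth muscle markers summed to 738 to 913 CPM in scramble control and 233 to 307 CPM in KD. With LPS they summed to 325 to 377 CPM in scramble control and 122 to 180 CPM in KD. The 6 endothelial markers, with 1 of them at 0, summed to 23.6 to 27.1 CPM in scramble control and 11.8 to 12.3 CPM in KD. With LPS these sums were 15.3 to 17.0 CPM and 8.45 to 13.2 CPM. KDR was higher in KD with LPS (log2 fold change 4.89), whereas VWF, TEK and PECAM1 were lower. Of 10 leukocyte and macrophage markers 5 were at 0 in every group, and the summed level of 52.8 to 58.7 CPM in scramble control and 31.2 to 36.9 CPM in KD was mostly CD68. In bulk RNA fewer cells of a type and less RNA per cell cannot be told apart, and the part of these differences in the results on KD was not tested.

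The promoter windows of IL6 and IL11 are shown because LPS moved these ligands in opposite directions. Both come from the RefSeq promoter table (GRCh38.p14), which held 7 of the 9 genes, and each runs from 250 bases before to 50 bases after the transcription start. It held no window for LIF or CLCF1, so the promoters of these ligands were not searched. The IL6 window lies on the plus strand at chr7:22726950-22727249 and the IL11 window on the minus strand at chr19:55370414-55370713. Capitals mark motifs found by a search of both strands.
IL6: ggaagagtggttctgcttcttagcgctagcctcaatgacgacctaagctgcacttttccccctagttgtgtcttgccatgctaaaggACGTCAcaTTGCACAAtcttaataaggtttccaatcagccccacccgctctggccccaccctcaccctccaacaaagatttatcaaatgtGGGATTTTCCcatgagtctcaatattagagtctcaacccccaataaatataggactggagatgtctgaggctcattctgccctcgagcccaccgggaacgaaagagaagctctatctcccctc
IL11: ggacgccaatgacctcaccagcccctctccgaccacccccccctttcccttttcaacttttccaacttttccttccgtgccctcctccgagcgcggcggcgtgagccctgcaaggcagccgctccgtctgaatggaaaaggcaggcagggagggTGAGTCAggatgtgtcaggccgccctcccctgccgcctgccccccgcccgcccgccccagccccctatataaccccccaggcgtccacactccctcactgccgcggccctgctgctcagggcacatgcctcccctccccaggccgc
In the IL6 window the capitals mark, in order, the core of a cAMP response element (ACGTCA, first base at -163 from the start), a C/EBP motif (TTGCNNAA, at -155) and a kappa-B motif (at -73). In the IL11 window they mark an AP-1 motif (TGANTCA, at -96). The windows of IL6R and OSMR also held an AP-1 motif, and those of OSMR and LIFR a C/EBP motif. LPS moved neither OSMR nor LIFR past the threshold in either background, and IL6R was called lower in scramble control. Whether any of these motifs bears on a response to LPS was not tested. Of 35116 promoter windows of the same length, 7.98% held the cAMP response element core, 10.5% the C/EBP motif, 5.91% the kappa-B motif, 7.71% the AP-1 motif and 7.66% a STAT motif (TTCNNNGAA). Each letter match is a description of these windows, and the motifs of IL6 do not overlap.

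IL6 encodes interleukin-6 and spans chromosome 7 from 22725884 to 22732002 (GRCh38, plus strand, 5 exons in the canonical transcript). Without LPS it stood at 46.5, 55.0 and 56.0 CPM in scramble control and at 92.7, 95.2 and 81.3 CPM in linc-ADAIN KD. With LPS it stood at 119, 141 and 136 CPM in scramble control and at 499, 486 and 538 CPM in KD. In each comparison the groups did not overlap, and the order of the group means was scramble control (52.5 ± 5.23 CPM), KD (89.7 ± 7.44 CPM), scramble control with LPS (132 ± 11.6 CPM) and KD with LPS (508 ± 27.1 CPM; SD, n = 3 each). The rise in KD was 1.71-fold without LPS (log2 fold change 0.78, standard error 0.097, adjusted p = 9.2e-05, edgeR) and 3.85-fold with LPS (1.94, standard error 0.084, adjusted p = 2.6e-09). The rise after LPS was 2.54-fold in scramble control (log2 fold change 1.34, standard error 0.096, adjusted p = 3.5e-06) and 5.66-fold in KD (2.50, standard error 0.084, adjusted p = 5.9e-11).

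LIF, leukemia inhibitory factor, is transcribed from the minus strand of chromosome 22 between 30240453 and 30246759. Without LPS the 3 scramble control libraries held 24.4, 26.5 and 23.2 CPM and the KD libraries 102, 78.1 and 77.4 CPM. After LPS the values were 54.9, 85.7 and 83.7 CPM in scramble control and 318, 306 and 296 CPM in KD. Every KD library lay above every scramble control library of the same treatment, but KD without LPS (85.8 ± 14.0 CPM) and scramble control with LPS (74.8 ± 17.2 CPM) overlapped. LIF rose in KD by 3.49-fold without LPS (log2 fold change 1.80, standard error 0.12, adjusted p = 5.3e-07) and by 4.10-fold with LPS (2.04, standard error 0.14, adjusted p = 1.1e-07). After LPS it rose by 3.05-fold in scramble control (1.61, standard error 0.15, adjusted p = 2.3e-05) and by 3.57-fold in KD (1.84, standard error 0.10, adjusted p = 1.6e-08).

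CLCF1, which encodes cardiotrophin-like cytokine factor 1, lies on the minus strand of chromosome 11 from 67364168 to 67374177. It was at 36.1, 28.8 and 33.9 CPM in scramble control and at 55.1, 44.6 and 52.6 CPM in KD. After LPS the libraries held 22.3, 26.6 and 26.9 CPM in scramble control and 35.9, 37.1 and 34.1 CPM in KD, so that CLCF1 was higher in KD and lower after LPS with no overlap in any of the 4 comparisons. The rise in KD was 1.55-fold without LPS (log2 fold change 0.63, standard error 0.11, adjusted p = 0.0012) and 1.42-fold with LPS (0.50, standard error 0.11, adjusted p = 0.0034). After LPS the log2 fold change was -0.50 in KD (standard error 0.10, adjusted p = 0.0048) and -0.37 in scramble control (standard error 0.11, adjusted p = 0.051), the latter just outside the threshold of 0.05.

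IL11, on the minus strand of chromosome 19 from 55364382 to 55370463, was the ligand with the lowest counts, from 40 to 291 per library. Scramble control held 4.04, 2.76 and 1.68 CPM and scramble control with LPS 1.18, 1.32 and 1.10 CPM. In KD the libraries held 5.30, 5.40 and 4.12 CPM, and with LPS 1.81, 2.13 and 2.21 CPM. IL11 thus lay lower after LPS in both backgrounds, without overlap, whereas IL6 and LIF lay higher. It fell by 1.23 on the log2 scale in scramble control (standard error 0.35, adjusted p = 0.038) and by 1.27 in KD (standard error 0.27, adjusted p = 0.0058). The KD libraries lay above the scramble control libraries without LPS and with LPS, but the log2 fold changes of 0.81 (standard error 0.30, adjusted p = 0.066) and 0.77 (standard error 0.38, adjusted p = 0.16) did not pass the test. The call in scramble control was lost without scramble replicate 1, the library with 4.04 CPM (adjusted p = 0.22), and without scramble replicate 2 or any scramble_LPS replicate (adjusted p = 0.070 to 0.12).

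**Figure D1:**
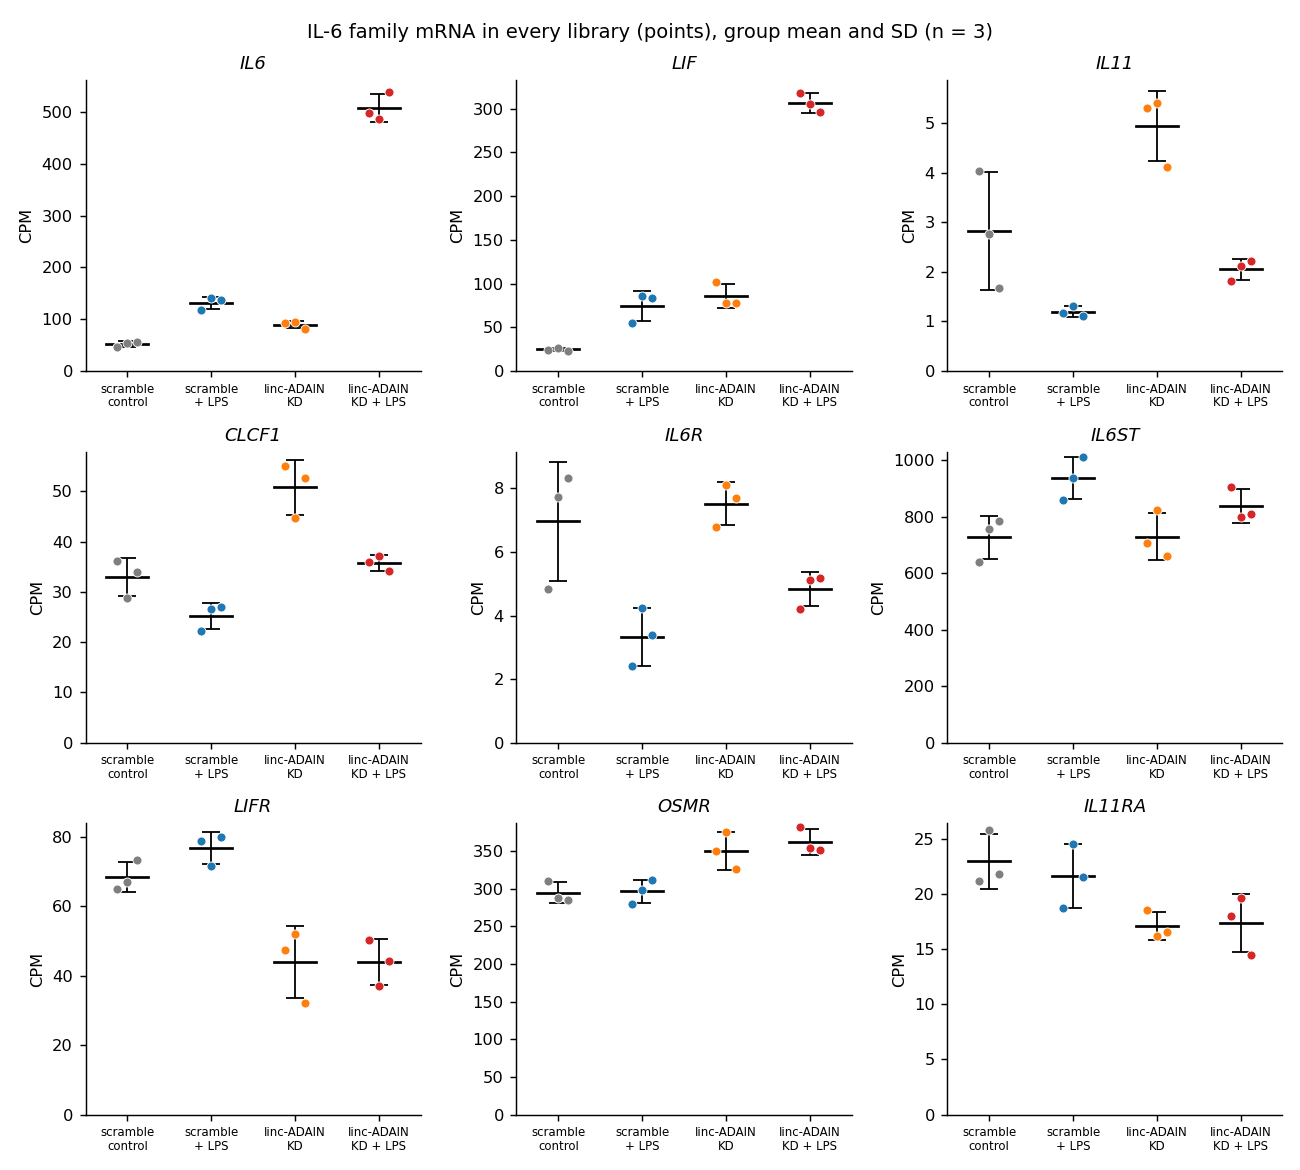
CPM of the 9 genes in every library (points), with the mean and SD of the 3 libraries of a group (black bars), on linear axes that start at 0. IL6 and LIF stand highest in linc-ADAIN KD with LPS (508 and 307 CPM on average), IL11 and CLCF1 are lower after LPS than without it in both backgrounds, and LIFR lies lower in both KD groups.

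Among the receptor subunits, IL6ST, which encodes the shared subunit gp130, was the most abundant per transcript length in every group. It lies on chromosome 5 from 55935095 to 55995022, on the minus strand. Scramble control held 640, 756 and 785 CPM and KD 706, 823 and 659 CPM, and after LPS scramble control held 860, 938 and 1011 CPM and KD 906, 799 and 809 CPM. Scramble control and KD overlapped at both treatments, with log2 fold changes of 0.0091 without LPS (standard error 0.10, adjusted p = 0.96) and -0.16 with LPS (standard error 0.079, adjusted p = 0.16). After LPS it rose in scramble control by 1.30-fold (log2 fold change 0.38, standard error 0.094, adjusted p = 0.020), where the groups did not overlap, and the value in KD was 0.20 (standard error 0.084, adjusted p = 0.17). The call in scramble control was lost without scramble_LPS replicate 3, which held 1011 CPM (adjusted p = 0.095), and without scramble replicate 1 (0.065) or scramble replicate 2 (0.053).

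LIFR, the subunit that binds LIF, lies on the minus strand of chromosome 5 from 38474668 to 38608354. Of the 5 receptor subunits it had the largest difference in KD. It was at 65.0, 67.0 and 73.3 CPM in scramble control and at 47.5, 51.9 and 32.2 CPM in KD. With LPS it was at 78.8, 71.5 and 80.1 CPM in scramble control and at 50.3, 37.1 and 44.1 CPM in KD, so that all KD libraries lay below all scramble control libraries. LIFR fell to 0.643 of its level without LPS (log2 fold change -0.64, standard error 0.14, adjusted p = 0.0063) and to 0.570 with LPS (-0.81, standard error 0.11, adjusted p = 9.7e-05). The KD library with the least LIFR, replicate 3, had the least FABP4 (318 CPM, against 886 and 681 CPM). In KD with LPS the least LIFR was in replicate 2 and the least FABP4 in replicate 3 (264 CPM, against 582 and 387 CPM). A relation of LIFR to FABP4 was not tested, and 3 libraries per group are too few to show one. After LPS the log2 fold change was 0.18 in scramble control (standard error 0.082, adjusted p = 0.18) and -0.0017 in KD (standard error 0.16, adjusted p = 1.00).

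OSMR, on chromosome 5 (38845858 to 38945596, plus strand), stood at 311, 288 and 286 CPM in scramble control and 350, 376 and 326 CPM in KD, and with LPS at 280, 299 and 311 CPM and 382, 354 and 351 CPM. KD lay above scramble control without overlap, 1.19-fold without LPS (log2 fold change 0.25, standard error 0.078, adjusted p = 0.031) and 1.22-fold with LPS (0.29, standard error 0.074, adjusted p = 0.010). These were the smallest differences called among the 9 genes, and the call without LPS was lost when scramble replicate 2 or 3 or KD replicate 1 or 2 was left out (adjusted p = 0.084 to 0.12), and that with LPS without KD_LPS replicate 1 (adjusted p = 0.054). LPS moved OSMR by 0.022 in scramble control and 0.048 in KD on the log2 scale, less than the standard error of each.

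Of the alpha subunits, IL11RA, on chromosome 9 (34652162 to 34661902, plus strand), held 21.2, 25.8 and 21.8 CPM in scramble control and 18.5, 16.2 and 16.6 CPM in KD, and with LPS 18.7, 24.5 and 21.6 CPM and 18.0, 19.7 and 14.5 CPM. It was lower in KD without LPS (log2 fold change -0.42, standard error 0.12, adjusted p = 0.018), a call lost without scramble replicate 2 (adjusted p = 0.11) and under scaling by library size alone (adjusted p = 0.061), and with LPS the groups overlapped (-0.31, standard error 0.14, adjusted p = 0.14). IL6R, on chromosome 1 (154405193 to 154469450, plus strand), had 94 to 436 counts per library. Scramble control held 4.84, 7.72 and 8.34 CPM and KD 6.77, 8.09 and 7.68 CPM, which overlapped (log2 fold change 0.12, standard error 0.21, adjusted p = 0.74). After LPS scramble control held 2.40, 4.23 and 3.37 CPM and KD 4.22, 5.12 and 5.17 CPM. The fall of IL6R after LPS passed the test in scramble control (log2 fold change -1.05, standard error 0.26, adjusted p = 0.019) and was -0.64 in KD (standard error 0.20, adjusted p = 0.053), and the groups overlapped in neither background. Without scramble replicate 2, scramble replicate 3 or scramble_LPS replicate 3 the adjusted p in scramble control was 0.089, 0.075 and 0.063.

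Counted over the family, KD without LPS gave 4 of 9 genes higher (IL6, LIF, CLCF1 and OSMR) and 2 lower (LIFR and IL11RA), where 12.1% of all 16217 genes tested were higher and 15.1% lower. With LPS, KD gave the same 4 higher and LIFR lower, where 12.7% of 15981 genes were higher and 14.2% lower. LPS gave 3 of 9 higher (IL6, LIF and IL6ST) and 2 lower (IL11 and IL6R) in scramble control, where 5.9% of 15920 genes were higher and 8.38% lower, and 2 higher (IL6 and LIF) and 2 lower (IL11 and CLCF1) in KD, where 5.32% of 16169 genes were higher and 6.03% lower. The median log2 fold change of the 9 was 0.25 and 0.50 in KD without and with LPS and 0.022 and 0.028 after LPS in scramble control and KD, and that of all genes tested lay between 0.0099 and 0.025. The count after LPS in scramble control rested on single libraries, since leaving each out in turn gave 2 to 4 of the 9, with 2 without scramble_LPS replicate 3 and 3 without scramble replicate 1 or scramble replicate 2. An exact permutation test of a single gene, 3 libraries on each side, cannot go below a two-sided p of 0.1, so the calls rest on the variance that edgeR's quasi-likelihood fit shares between genes.

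**Figure D2:**
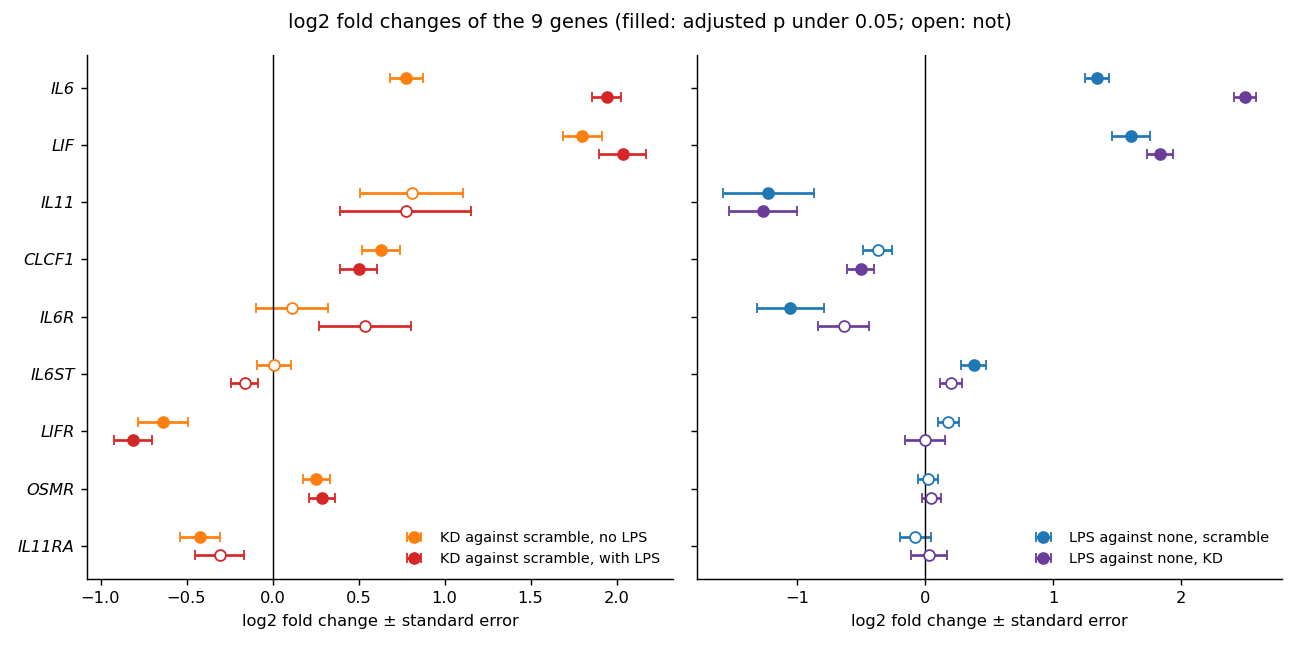
The log2 fold change of each gene, with its standard error, in linc-ADAIN KD against scramble control (left) and after LPS (right). Filled points passed an adjusted p of 0.05, and the pair of values for IL6 differs in each panel (0.78 and 1.94 left, 1.34 and 2.50 right) where those for LIF lie close (1.80 and 2.04 left, 1.61 and 1.84 right).

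Whether the effect of KD differed with LPS was tested on all 12 libraries by the interaction term. Among the 9 genes IL6 was the 1 that passed, with a KD effect that was 2.25-fold larger with LPS than without (log2 interaction 1.17, standard error 0.13, adjusted p = 0.00014, edgeR). Of all 17173 genes tested, 0.943% had a positive and 0.332% a negative interaction past the threshold. For LIF the interaction was 0.24 (standard error 0.19, adjusted p = 0.72), for CLCF1 -0.12 (standard error 0.16, adjusted p = 0.88) and for IL11 -0.029 (standard error 0.45, adjusted p = 1.00), the last with the widest standard error of the 9 genes. Among the receptor subunits the interaction ran from -0.17 for LIFR (standard error 0.20) to 0.43 for IL6R (standard error 0.34), with adjusted p of 0.72 and above. Each library left out in turn and every other processing choice tried left IL6 past the threshold.

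Levels of different genes were compared only per length, as CPM per kb of the canonical GENCODE v44 transcript. In scramble control the order per kb was IL6ST (80.5 ± 8.46), OSMR (53.3 ± 2.49), IL6 (46.6 ± 4.64), CLCF1 (19.3 ± 2.20), IL11RA (13.3 ± 1.46), LIFR (6.48 ± 0.42), LIF (6.37 ± 0.43), IL6R (1.21 ± 0.32) and IL11 (1.19 ± 0.50; SD, n = 3 each). Here LIFR and LIF, and IL6R and IL11, were neighbors that overlapped. In KD with LPS IL6 led at 451 ± 24.0 CPM per kb, followed by IL6ST at 92.8 ± 6.54, LIF at 79.2 ± 2.93, OSMR at 65.5 ± 3.07, CLCF1 at 21.0 ± 0.89, IL11RA at 10.1 ± 1.53 and LIFR at 4.16 ± 0.63, with IL11 (0.86 ± 0.090) and IL6R (0.84 ± 0.093) overlapping at the end. LIF and LIFR, which overlapped per kb in scramble control, stood at 22.2 ± 3.62 and 4.16 ± 0.98 CPM per kb in KD. The transcript of the alpha subunit IL6R was at or under 1.45 CPM per kb in every library, where IL6ST was at 70.9 or above.

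**Figure D3:**
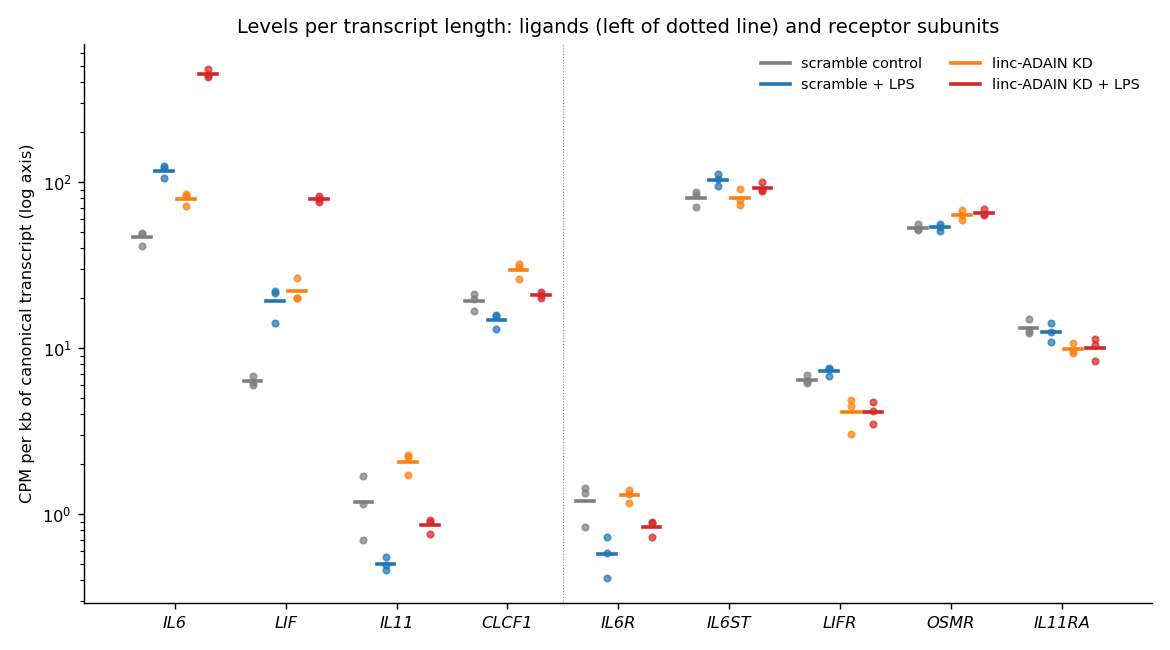
CPM per kb of canonical transcript on a log axis, with a point per library and a bar for the group mean of 3 libraries. The mean of IL6 lies above that of IL6ST in linc-ADAIN KD with LPS (451 against 92.8 CPM per kb) and in scramble control with LPS (117 against 104), where the libraries overlap, and IL6R and IL11 lie lowest in all groups.

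Of the summed CPM per kb of the 4 ligands, IL6 made up 63.3% ± 4.16 in scramble control, 77.3% ± 1.62 with LPS, 59.6% ± 3.37 in KD and 81.7% ± 1.22 in KD with LPS (SD, n = 3 libraries each). LIF made up 8.69% ± 0.75 in scramble control and 16.5% ± 1.69 in KD, without overlap of the libraries. CLCF1 made up 26.3% ± 3.59 in scramble control and 22.3% ± 2.55 in KD, and 9.77% ± 0.20 and 3.81% ± 0.31 of the ligand transcripts after LPS. IL11 stayed at or under 2.42% in every library. These shares are descriptions, since each depends on the other 3 ligands.

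**Figure D4:**
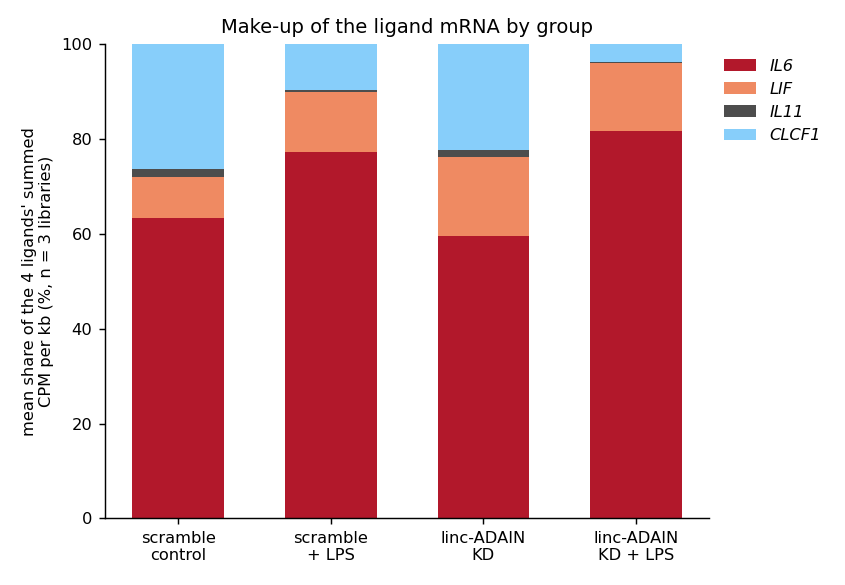
Mean share of each ligand in the summed CPM per kb of the 4 ligands, by group, over 3 libraries. IL6 is the largest share in every group, from 59.6% to 81.7%, and the share of CLCF1 is smaller after LPS (9.77% and 3.81%) than without it (26.3% and 22.3%).

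The genes whose pattern over the 12 libraries was most like that of a ligand were found by the root mean square difference of log2 CPM, centered on scramble control, among 11810 genes that averaged 50 counts or more per library. For IL6 these were CXCL3 (0.21), NFKBIZ (0.31) and CCL7 (0.33), a chemokine, a nuclear NF-κB cofactor and a second chemokine. For LIF they were AMPD3 (0.21), CXCL8 (0.24), which encodes the chemokine IL-8, and ARRDC3 (0.28). For IL11 they were DOK1 (0.24), ZNF385D (0.33) and TNFAIP8L3 (0.35), and for CLCF1 LIMK1 (0.15), ATP6V0A1 (0.15) and JUNB (0.16). All 12 libraries enter each value, so that genes moved by KD and LPS to a like degree come near by construction.

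Other ligands and receptors of the family were mostly at low levels. OSM, IL27 and IL31 had 0 counts in all 12 libraries, which allows up to 3 counts in a library, or 0.056 to 0.106 CPM. Of the 9 such genes reported here, 5 were tested in KD without LPS and 6 with LPS, and in each comparison CNTFR was lower and none was higher. Over all genes tested, 12.1% were higher and 15.1% lower in KD without LPS, and 12.7% and 14.2% with LPS. CNTFR, the alpha receptor for the cytokine of CLCF1, was at 10.6, 13.2 and 13.8 CPM in scramble control and 7.66, 4.38 and 1.01 CPM in KD, without overlap. On the log2 scale it fell by 1.53 without LPS (standard error 0.46, adjusted p = 0.028) and fell by 2.46 with LPS (standard error 0.28, adjusted p = 1.7e-05). CLCF1 was thus higher in KD where its receptor genes CNTFR and LIFR were lower. The remaining gene of that receptor, IL6ST, was called in KD neither without nor with LPS (log2 fold changes 0.0091 and -0.16). LPS called none of the 6 tested genes of this list in scramble control and none of the 5 in KD. Over all genes tested, LPS called 5.9% higher and 8.38% lower in scramble control, and 5.32% and 6.03% in KD.

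Of the 10 genes of gp130 signaling reported here none was higher and 4 were lower in KD without LPS (STAT5A, JAK1, STAT5B and GRB2), with a median log2 fold change of -0.27. The shares over all genes tested in KD were 12.1% higher and 15.1% lower without LPS, and 12.7% and 14.2% with LPS. JAK1, the kinase that gp130 relies on most, was at 1165, 1111 and 1125 CPM in scramble control and fell by 0.51 on the log2 scale (standard error 0.068, adjusted p = 0.00016) to 775, 831 and 769 CPM in KD, without overlap. STAT3, the main STAT of this pathway, was at 253, 280 and 279 CPM and 282, 284 and 252 CPM (log2 fold change 0.015, standard error 0.079, adjusted p = 0.92). With LPS, SOS1, JAK1, STAT5B and STAT3 were lower and none was higher, the change in STAT3 being -0.29 on the log2 scale (adjusted p = 0.016, standard error 0.081). LPS raised STAT5A and JAK2 in scramble control (by 1.20 and 0.99 on the log2 scale) and in KD (by 1.76 and 1.07), with JAK1 also higher in scramble control. No gene of this list was lower after LPS, of 10 tested in each background. The shares over all genes tested were 5.9% higher and 8.38% lower in scramble control, and 5.32% and 6.03% in KD.

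SOCS3, the classical feedback inhibitor, was called higher in none of the comparisons. It was at 49.2, 69.6 and 57.4 CPM in scramble control and 52.9, 38.0 and 40.2 CPM in KD, and with LPS at 52.9, 73.1 and 65.1 CPM and 48.8, 37.0 and 31.1 CPM. The groups overlapped without LPS and did not with LPS, and the log2 fold changes were -0.42 (standard error 0.14, adjusted p = 0.047) and -0.71 (standard error 0.15, adjusted p = 0.0035). Of 10 inhibitors, 2 were lower in KD without LPS (SOCS5 and SOCS3) and none higher, and with LPS SOCS3 and SOCS2 were lower and PTPN1, a phosphatase, was higher by 0.47. Among all genes tested in KD, 12.1% were higher and 15.1% lower without LPS, and 12.7% and 14.2% with LPS. After LPS PTPN2 was higher in both backgrounds, with SOCS5 and PTPN1 lower in scramble control and SOCS2 and PIAS3 lower in KD. The log2 fold change of SOCS3 after LPS was 0.13 in scramble control (standard error 0.14, adjusted p = 0.61) and -0.16 in KD (standard error 0.16, adjusted p = 0.61).

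IL-6 receptor shedding releases soluble IL6R through the protease ADAM17, which the iRhom proteins RHBDF1 and RHBDF2 help to mature and TIMP3 inhibits. TIMP3 was lower in each of the 4 comparisons, at 838, 1127 and 1185 CPM in scramble control, 405, 481 and 550 CPM with LPS, 224, 215 and 258 CPM in KD and 101, 97.0 and 114 CPM in KD with LPS. It fell by 2.17 in KD without LPS (standard error 0.13, adjusted p = 2.3e-07) and by 1.12 after LPS in scramble control (standard error 0.14, adjusted p = 0.00021) on the log2 scale. ADAM17 was higher after LPS, by 0.32 in scramble control and 0.43 in KD. RHBDF2 had 5, 6 and 3 counts in scramble control and 69, 98 and 102 counts in KD (adjusted p = 5.0e-05), and RHBDF1 was higher in KD without LPS by 0.49 (standard error 0.10, adjusted p = 0.0028). With LPS, RHBDF2 and ADAM17 were the 2 of the 5 listed genes that were higher in KD. RHBDF1 was not called there (log2 fold change 0.30, adjusted p = 0.085), and it was lower after LPS in KD. ADAM10 was called in none of the 4 comparisons. Over all genes tested in KD, 12.1% were higher and 15.1% lower without LPS, and 12.7% and 14.2% with LPS. After LPS, 5.9% were higher and 8.38% lower in scramble control, and 5.32% and 6.03% in KD.

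STAT3 target and acute-phase genes divided between directions. Of 26 listed genes 23 were tested in KD without LPS, and 7 were higher and 6 lower, with a median log2 fold change of 0.0063. With LPS 10 of 22 were higher and 6 lower, with a median of 0.18. The shares over all genes tested were 12.1% higher and 15.1% lower without LPS, and 12.7% and 14.2% with LPS. Among listed genes averaging at least 50 counts per library, the largest rises in KD without LPS were in SAA2, SAA1 and A2M, acute-phase and protease inhibitor genes. SAA1 was then at 58.9, 77.3 and 94.6 CPM in scramble control and 435, 434 and 505 CPM in KD (log2 fold change 2.58, standard error 0.15, adjusted p = 2.2e-07), SAA2 rose by 3.88 (standard error 0.20, adjusted p = 1.1e-07) and A2M by 2.55 (standard error 0.19, adjusted p = 1.6e-06). SAA1 and SAA2 are near-identical copies, so the split of reads between them is uncertain. HP, haptoglobin, which adipocytes also express, fell by 1.95 (standard error 0.22, adjusted p = 4.1e-05), and PIM1 and VEGFA were the next largest falls.

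After LPS the largest rises of the STAT3 list were in CEBPD and BCL3. CEBPD, a transcription factor gene, was at 63.3, 65.5 and 61.5 CPM in scramble control and 158, 197 and 151 CPM with LPS (log2 fold change 1.42, standard error 0.10, adjusted p = 3.0e-06), and rose by 1.98 in KD (standard error 0.093, adjusted p = 2.2e-09). BCL3 was higher in both backgrounds, and VEGFA, JUNB and MYC were lower in both. In all 3 of 22 tested were higher and 3 lower in scramble control, and 5 of 21 higher and 4 lower in KD. Among all genes tested, 5.9% were higher and 8.38% lower in scramble control, and 5.32% and 6.03% in KD. SAA1 had a log2 fold change of -0.24 after LPS in scramble control (standard error 0.17, adjusted p = 0.40) and 0.33 in KD (standard error 0.093, adjusted p = 0.035), and its interaction of 0.58 did not pass the test (standard error 0.21, adjusted p = 0.26).

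Among regulators of IL6 transcription and mRNA decay, 5 of 10 were higher and 3 lower after LPS in scramble control, and 7 were higher and 2 lower in KD, with median log2 fold changes of 0.50 and 0.80. The shares over all genes tested were 5.9% higher and 8.38% lower in scramble control, and 5.32% and 6.03% in KD. ZC3H12A, which encodes the ribonuclease regnase-1 that degrades IL6 mRNA, was at 12.7, 14.2 and 14.1 CPM in scramble control, 86.3, 122 and 101 CPM with LPS, 33.6, 35.9 and 36.1 CPM in KD and 228, 246 and 215 CPM in KD with LPS. It rose by 2.93 after LPS in scramble control (standard error 0.12, adjusted p = 1.2e-07) and by 1.37 in KD without LPS (standard error 0.10, adjusted p = 1.3e-06) on the log2 scale. NFKBIZ, whose product IκBζ acts with NF-κB at the IL6 promoter, rose by 0.75 in KD without LPS (standard error 0.091, adjusted p = 7.9e-05) and by 1.13 with LPS (standard error 0.076, adjusted p = 1.1e-07), and its interaction of 0.39 did not pass the test (adjusted p = 0.096). The NF-κB subunit gene REL was higher after LPS by 1.99 in scramble control and 2.16 in KD.

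In KD without LPS, 3 of these 10 regulators were higher (ZC3H12A, ATF3 and NFKBIZ) and FOSL1 was lower. With LPS 6 were higher, ATF3, ZC3H12A and NFKBIZ the most, and FOSL1 and ZFP36 were lower. Over all genes tested in KD, 12.1% were higher and 15.1% lower without LPS, and 12.7% and 14.2% with LPS. FOSL1, an AP-1 subunit gene, was at 709, 825 and 724 CPM in scramble control and fewer in KD (486, 392 and 448 CPM), and with LPS at 425, 598 and 508 CPM and 275, 297 and 300 CPM. It was lower in all 4 comparisons, with log2 fold changes of -0.76 in KD without LPS (standard error 0.094, adjusted p = 8.3e-05) and -0.55 after LPS in scramble control (standard error 0.11, adjusted p = 0.0076). ZFP36, which encodes the mRNA decay factor tristetraprolin, was lower after LPS in both backgrounds, with log2 fold changes of -0.49 and -0.78. No gene of the 6 lists passed the test of interaction, with medians between -0.39 and 0.30 on the log2 scale.

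**Figure D5:**
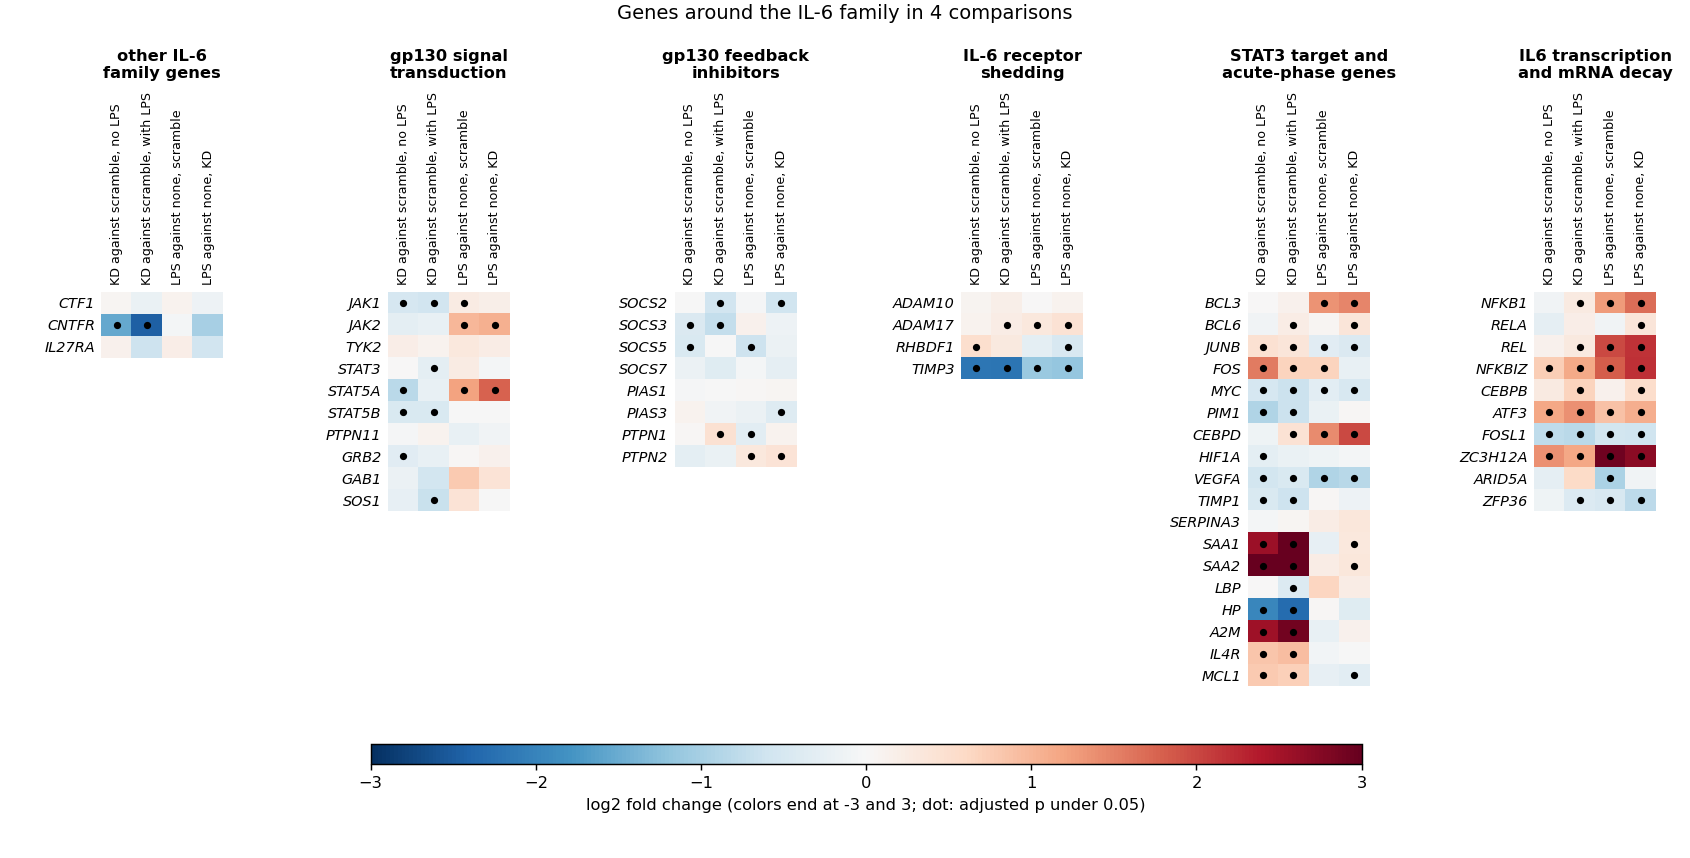
The log2 fold change (color, ending at -3 and 3) of the listed genes that averaged 50 counts or more per library, in the 4 comparisons, where a dot marks an adjusted p under 0.05. CNTFR and TIMP3 are lower in linc-ADAIN KD and SAA1, SAA2 and A2M higher, whereas ZC3H12A, NFKBIZ, REL and CEBPD are higher after LPS.

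Reads of overlapping genes could enter these values. On the opposite strand IL6 overlaps STEAP1B, CLCF1 overlaps RAD9A, OSMR overlaps RICTOR and IL11RA overlaps CCL27. On their own strand CLCF1 and IL11RA each overlap a protein-coding gene without a symbol. The kit was stranded, but whether the counting used strand is not given in the sources used here. IL6ST and IL6R have pseudogenes, IL6STP1 on chromosome 17 and IL6RP1 on chromosome 9, that could share reads with them.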

How the data were processed

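The authors made libraries with a stranded polyA kit and, per the labels, converted them with bcl2fastq 2.19 and assigned reads to human transcripts (GRCh38) with kallisto 0.44.0. They deposited estimated counts per gene name, not normalized for depth or length. The annotation release is not given in the sources used here. A row without a gene name (0.235% to 0.306% of a library) was left out.

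In R 4.3.3, counts were rounded, genes totalling under 10 counts in the libraries of a fit were dropped, and the rest were tested by edgeR 4.0.16 (TMM scaling, quasi-likelihood F test, Benjamini-Hochberg over all genes tested, threshold 0.05, no fold threshold). Groups came from the labels. Each comparison used its 6 libraries and the interaction all 12. A standard error is the log2 fold change over the square root of F. The study used DESeq2 1.32.0, and DESeq2 1.42.0 was an alternative, with other scalings, filters, a fit of all 12 libraries, a replicate block and each library left out. Ranges of depth run from the lowest to the highest library of a group. The allowance of 3 counts for a count of 0 covers counting error only. The fits of KD without LPS and of the interaction were also run on simulated counts. These gave every gene the same variability, unlike real data, so they check the steps and not the results.

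The 9 genes and the lists were chosen with earlier results of these data known. Named were the 9, up to 3 called genes per list, direction and comparison with the largest change and a mean of at least 50 counts, and 3 genes most like each ligand. Some list genes are not reported here. GRB2, STAT3, RHBDF2 and SAA1 after LPS, the markers and other genes at a low level were named after their values were seen.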

Additional observations from a re-analysis of the deposited data

Results flagged for a closer look

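The effect of linc-ADAIN KD on IL6 differed with LPS. IL6 was higher in KD than in scramble control by 0.78 on the log2 scale without LPS and by 1.94 with LPS, in every KD library at both treatments, and the difference between these effects was 1.17 (standard error 0.13, adjusted p = 0.00014, edgeR's quasi-likelihood test of the interaction over 12 libraries). Groups of 3 libraries were not searched for outlying samples.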

How the results depend on the processing

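Of 45 log2 fold changes and interactions of the 9 genes, 26 kept their direction and side of the threshold under every alternative, 6 lost their call and 4 gained one under some, and 9 changed sign under some, none of them called. The number of the 9 genes called after LPS in scramble control (5) was 2 to 4 with a library left out, and no other such count moved by over 1.5 times. Scaling by library size alone gave -0.017 for OSMR after LPS in scramble control and -0.0044 for OSMR and -0.021 for IL11RA after LPS in KD. With a library left out, KD without LPS ranged from -0.090 to 0.25 for IL6R and -0.091 to 0.079 for IL6ST, LPS in scramble control from -0.17 to 0.020 for IL11RA and -0.014 to 0.064 for OSMR, LPS in KD from -0.19 to 0.13 for LIFR, -0.010 to 0.093 for OSMR and -0.066 to 0.14 for IL11RA, and the interaction from -0.032 to 0.078 for OSMR and -0.38 to 0.24 for IL11. CLCF1 after LPS in scramble control, at an adjusted p of 0.051, passed under each of the 8 other settings that used all its libraries, with adjusted p of 0.017 to 0.049, and IL11 in KD without LPS passed under DESeq2 (adjusted p = 0.048) and without a filter on low counts (adjusted p = 0.042). Of 18 pairs of libraries with the same replicate number, 4 had deviations correlated above 0.1, with a range of -0.14 to 0.25. Replicates 1, 2 and 3 gave 0.25, 0.073 and 0.055 between scramble control and scramble control with LPS. Between KD and KD with LPS they gave 0.11, -0.071 and 0.13. The check showed no clear pairing over the 4 groups but cannot exclude one within a background. With the replicate block 6, 5, 6, 5 and 1 of the 9 genes were called in the 5 comparisons, against 6, 5, 5, 4 and 1 without it. Under the block, KD without LPS lost OSMR (adjusted p = 0.059) and gained IL11 (adjusted p = 0.031), LPS gained CLCF1 in scramble control (adjusted p = 0.017) and IL6R in KD (adjusted p = 0.046), and LIFR after LPS in KD was 0.014. The edgeR adjusted p after LPS in scramble control was then 0.00045 for IL6ST, 0.00056 for IL6R and 0.90 for OSMR. Without the block these were 0.020, 0.019 and 0.89. The interaction over all 17173 genes called 219, and 475 with DESeq2, 431 with no filter on low counts and 92 to 243 with a library left out. LPS in scramble control called 2274 of all genes, and 1187 to 2106 with a library left out, the fewest without scramble replicate 2. Counts per library ran from 40 to 291 for IL11 and from 94 to 436 for IL6R. The cause of these changes was not tested.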
